A study of Mus musculus with 16 samples.

Results

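The knock-in that removes arginine 200 of Aifm1 was compared with its wild-type littermates across all genes of the mouse cerebral cortex. RNA sequencing of the 8 libraries that carry the group names Aifm1-KI and Aifm1-WT, out of 16 in the series, gave a read count for 55573 genes. Of these, 18383 genes passed a filter on low counts (edgeR's default by group) and are described here. Each group held 4 libraries, numbered 1 to 4. The labels give genotype Aifm1-KI (R200 del) and Aifm1-WT, strain C57BL/6, no treatment and an age of around postnatal day 180 for both. Sex is not stated, nor is it stated that every library came from its own animal. The p-values thus cover the spread between libraries only, and that spread may be technical. The replicate numbers do not pair a knock-in library with a wild type.

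The product of Aifm1, apoptosis-inducing factor, is a flavin-bearing protein that sits between the mitochondrial membranes. It binds NADH and works with the import receptor Mia40 (gene Chchd4), and cells that lack it lose respiratory complexes, complex I above all. When mitochondria are breached, the protein can move to the nucleus and take part in cell death. Loss of the corresponding arginine in people has been linked to a mitochondrial encephalomyopathy.

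The gene lies on GRCm38 chromosome X, 48474944 to 48513563, minus strand. In the reference transcript, codon 200 is in exon 5 of 16, at positions 48497082 to 48497084, and encodes arginine between a glutamate and a serine. The codon that the knock-in removes is shown in capitals within 63 bases of the spliced coding sequence, which run into exon 6.
Aifm1 codon 200: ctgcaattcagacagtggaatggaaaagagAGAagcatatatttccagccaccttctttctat
Counts per gene cannot show whether this codon is present, so they do not check the genotype. Aifm1 itself was at 22.5, 25.4, 26.8 and 23.6 CPM (counts per 1000000 counts of the library, scaled by TMM factors) in Aifm1-KI 1 to 4. In Aifm1-WT 1 to 4 it was at 21.9, 23.5, 23.7 and 23.9 CPM. The groups overlapped, with a log2 fold change of 0.08 (SE 0.07; adjusted p = 0.679, edgeR).

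Several libraries stood apart before any gene was compared. Total counts ran from 11671853 in Aifm1-KI 3 to 32551594 in Aifm1-KI 2, and the level that a gene with no reads could still have, taken as 3 counts, was 0.257 CPM and 0.0922 CPM there. Along the first principal component, which held 58.7% of the variance of 14371 genes, Aifm1-KI 2 was at 47.1 and Aifm1-KI 4 at 24.3, while the other 6 libraries lay between -17.5 and -3.3. Aifm1-KI 2 held much more RNA of the choroid plexus, the epithelium that makes cerebrospinal fluid, than any other library. Aifm1-KI 3 held the least RNA of the meninges, the membranes around the brain. In Aifm1-KI 4, features that carry ribosomal RNA sequence were high, with CT010467.1 at 3832 CPM against 414 to 832 CPM in the other 7, and Lars2, which also collects such reads, at 211 CPM against 42.9 to 67.5 CPM. Aifm1-WT 1 and 2 held liver transcripts. These features are spread unevenly over the genotype groups. Medians of the lists that follow such libraries are given also without Aifm1-KI 2 and 4, Aifm1-KI 2 or Aifm1-WT 1 and 2.

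No gene passed the test. The edgeR quasi-likelihood test called 0 of 18383 genes (0%) at a Benjamini-Hochberg adjusted p under 0.05, and the lowest adjusted p was 0.368. At an unadjusted p under 0.05 there were 2094 genes, of which 1296 (7.05% of those tested) were higher in Aifm1-KI and 798 (4.34%) lower. DESeq2 called 82 genes (47 higher, 35 lower) and limma-voom 0. Over all genes tested, 9486 were higher and 8897 lower, with a median log2 fold change of 0.0055. The words higher and lower below therefore describe the order of library values, not a call.

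The position of each knock-in library against the range of the 4 wild types separated shifts shared by every knock-in library from those of a few. In 491 genes (2.67%) all 4 Aifm1-KI libraries lay above all 4 Aifm1-WT libraries, and in 429 (2.33%) all 4 lay below. In 843 genes (4.59%) Aifm1-KI 2 and 4 alone were above the wild-type range, with Aifm1-KI 1 and 3 inside it, and in 834 (4.54%) these libraries alone were below it. The other 5 pairs of knock-in libraries gave 115 to 346 genes above and 93 to 304 below. A trio of Aifm1-KI 1, 2 and 4 accounted for 780 genes above and 629 below, while 2298 genes (12.5%) had no knock-in library outside the range. The pair 2 and 4 thus held more genes than any other pair and more than the full set of 4.

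**Figure D1:**
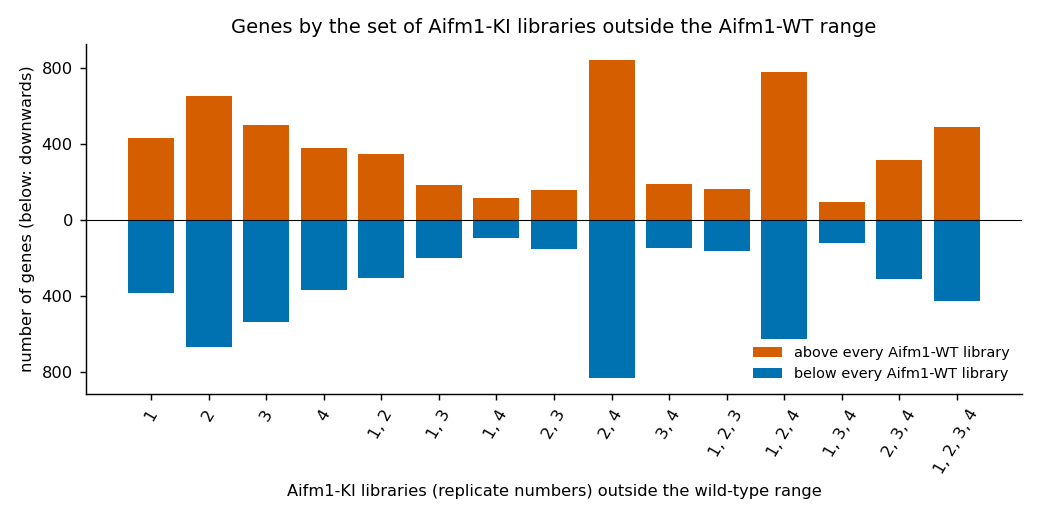
Number of genes (y axis, above the wild-type range upwards and below it downwards) for each set of Aifm1-KI libraries that lay outside the range of the 4 Aifm1-WT libraries (x axis, replicate numbers). The tallest bars belong to libraries 2 and 4 together (843 above, 834 below), and the set of all 4 holds 491 above and 429 below.

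Even among the genes shared by all 4, the shift was often carried by few libraries. As a measure of evenness, chosen after the data were seen, the smallest of the 4 shifts from the Aifm1-WT mean was divided by the largest, in log2 CPM. The ratio was at least 0.5 in 95 of the 491 higher genes (19.3%) and under 0.25 in 156 (31.8%). Of the 429 lower genes it was at least 0.5 in 101 (23.5%) and under 0.25 in 143 (33.3%). The farthest library was Aifm1-KI 2 in 300 higher and 247 lower genes, and Aifm1-KI 4 in 83 and 75. The genes described first are therefore those without overlap, and for each the spread among the knock-in libraries is given.

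Among genes higher in all 4 knock-in libraries, those of the synapse and the neuronal surface are described first. Tnr (ENSMUSG00000015829, chromosome 1, 159523769 to 159931729, plus strand), which encodes tenascin-R, an extracellular matrix protein of perineuronal nets made by oligodendrocyte precursors and some neurons, was at 286, 313, 264 and 305 CPM in Aifm1-KI 1 to 4. In Aifm1-WT 1 to 4 it was at 231, 206, 221 and 224 CPM. The lowest knock-in library exceeded the highest wild type, and the log2 fold change was 0.41 (SE 0.07; adjusted p = 0.368, edgeR). It was past the threshold without Aifm1-KI 3 (log2 fold change 0.44, edgeR adjusted p = 0.0435). Ryr3, a ryanodine receptor that releases calcium from the endoplasmic reticulum, was at 87.4, 105, 76.2 and 86.5 CPM in Aifm1-KI against 47.4, 61.9, 60.4 and 61.5 CPM in Aifm1-WT. Its log2 fold change was 0.62 (SE 0.11; adjusted p = 0.368, edgeR), and it too passed without Aifm1-KI 3 (edgeR adjusted p = 0.0488). Aifm1-KI 3 was the lowest knock-in library for Tnr and Ryr3, so leaving it out favours a call. Leaving out any other single library called 0 genes. On all 8 libraries, DESeq2 called both Tnr (DESeq2 adjusted p = 0.00121) and Ryr3 (DESeq2 adjusted p = 0.00298), which edgeR's quasi-likelihood test and limma-voom did not. Grip1, a scaffold that holds AMPA receptors at the synapse, was at 27.3, 36.5, 25.9 and 30.2 CPM in Aifm1-KI and at 21.2 to 22.4 CPM in Aifm1-WT. Csmd3, a large membrane protein with complement-like domains that shapes dendrites, was at 43.6, 70.2, 41.0 and 47.4 CPM against 31.8 to 35.0 CPM. In both genes Aifm1-KI 2 was the highest library and Aifm1-KI 3 the lowest of the knock-ins.

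Even shifts among the higher genes were mostly small, with a median log2 fold change of 0.22 over the 95. Examples were chosen after their values were seen. Grid1, a glutamate receptor of the delta class that organises synapses, was at 79.4, 78.9, 78.9 and 79.4 CPM in Aifm1-KI against 71.7, 63.3, 62.4 and 69.3 CPM in Aifm1-WT. The smallest of its knock-in shifts was 0.96 times the largest, and the log2 fold change was 0.25 (SE 0.06; adjusted p = 0.368, edgeR). Atp8a2, a lipid flippase of neurons, was at 94.5 to 97.4 CPM in Aifm1-KI and 76.9 to 85.8 CPM in Aifm1-WT. Abl2, a kinase that steadies dendritic spines through the cytoskeleton, was at 116 to 123 CPM against 98.2 to 106 CPM. For these genes the knock-in libraries 2 and 4 did not stand out from 1 and 3. Neto1, an auxiliary subunit of kainate receptors, was at 146 to 160 CPM in Aifm1-KI and 126 to 136 CPM in Aifm1-WT. Plxna4, a receptor for semaphorins that guide axons, was at 163 to 175 CPM against 142 to 154 CPM. Cers6, a ceramide synthase, was at 81.7 to 89.9 CPM against 64.9 to 75.7 CPM. Among these the groups were separated by narrow gaps, and the log2 fold changes were 0.22 for Neto1, 0.19 for Plxna4 and 0.25 for Cers6. Epha7, an ephrin receptor, was at 62.9, 77.7, 68.1 and 68.0 CPM in Aifm1-KI and 44.6, 51.2, 47.5 and 61.4 CPM in Aifm1-WT, with Aifm1-WT 4 nearest to the knock-ins. Utp20, which serves the assembly of the small ribosomal subunit, was at 36.8 to 40.6 CPM against 31.4 to 35.6 CPM.

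**Figure D2:**
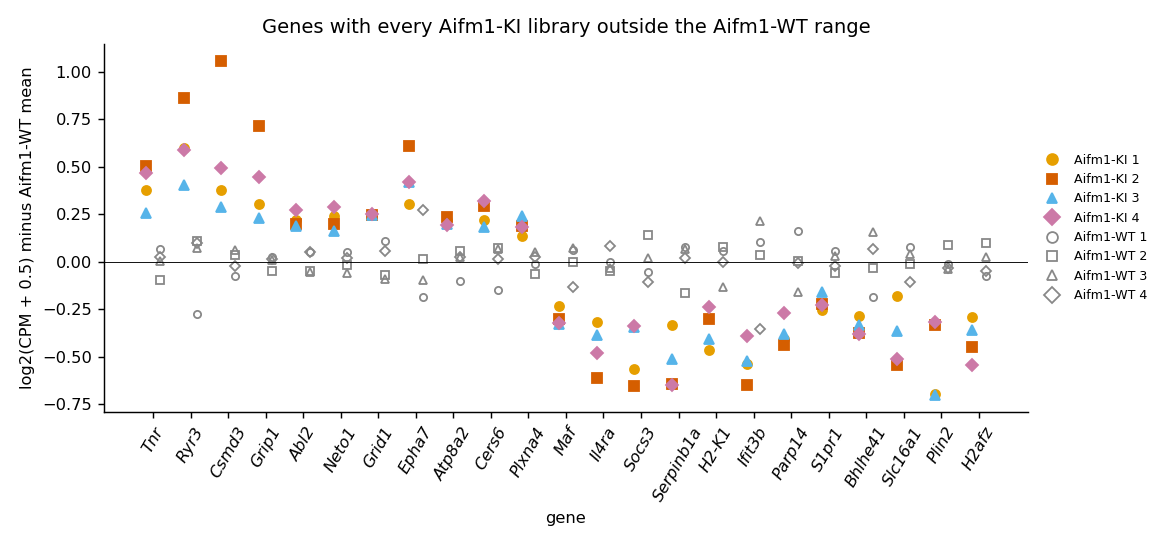
Shift of each library from the Aifm1-WT mean, in log2(CPM + 0.5) (y axis), for genes with all 4 Aifm1-KI libraries (filled) outside the range of the 4 Aifm1-WT libraries (open), one column per gene. Grid1 has its 4 knock-in libraries almost on one point (78.9 to 79.4 CPM), while in Csmd3 and Grip1 Aifm1-KI 2 stands above the other 3.

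Receptor and channel families gave a similar picture of small shifts with a few large ones. These proteins set the excitability of neurons, and the lists were drawn up with earlier results of these data known. Of 36 subunits of voltage-gated sodium and calcium channels, 22 were higher and 14 lower. Of these, 13 and 1 were at an unadjusted p under 0.05, against 7.05% and 4.34% of all genes. Without overlap, 4 were higher, against 2.67% of all genes. The median log2 fold change of the list was 0.084, beside 0.0055 for all genes tested. Cacna1h, a T-type calcium channel, was at 80.9, 98.6, 79.6 and 101 CPM in Aifm1-KI and 66.8 to 72.2 CPM in Aifm1-WT. All 4 knock-in libraries lay above the wild types, with Aifm1-KI 2 and 4 the highest.

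Of 22 glutamate receptor subunits, 14 were higher and 8 lower. Of these, 7 and 1 were at an unadjusted p under 0.05, against 7.05% and 4.34% of all genes. Gria1, an AMPA receptor subunit, was at 444, 648, 355 and 550 CPM in Aifm1-KI, with Aifm1-KI 3 just above the highest of the Aifm1-WT libraries, which held 337 to 355 CPM. Of 18 GABA and glycine receptor subunits, 11 were higher and 7 lower, with 7 and 1 at an unadjusted p under 0.05 (the same shares of all genes). Gabrb1, a GABA-A receptor subunit, was at 251, 321, 213 and 267 CPM against 192 to 207 CPM. Glra3, a glycine receptor subunit, was at 21.1, 65.0, 17.6 and 36.0 CPM against 14.6 to 15.7 CPM. In these genes too, Aifm1-KI 2 was the highest library and Aifm1-KI 3 the lowest knock-in.

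Receptors for monoamines and acetylcholine, which carry dopamine, serotonin, noradrenaline and cholinergic signals, were 18 higher and 10 lower of 28. Of these receptors, 8 and 1 were at an unadjusted p under 0.05, against 7.05% and 4.34% of all genes. Their level, the mean log2 CPM over members, was 3.90 to 4.07 in the Aifm1-KI libraries and 3.61 to 3.76 in Aifm1-WT, without overlap. The median log2 fold change was 0.15, and it was 0.15 again without Aifm1-KI 2 and 4. Htr2c, a serotonin receptor, was at 39.6, 163, 59.3 and 80.9 CPM in Aifm1-KI and 14.2, 11.6, 17.8 and 39.7 CPM in Aifm1-WT. Htr2c is also abundant in choroid plexus, whose markers were high in Aifm1-KI 2 and Aifm1-WT 4, and Aifm1-KI 1 lay just below Aifm1-WT 4. The part of choroid plexus RNA in its level was not tested.

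Potassium channel subunits, which bring the membrane back to rest, were 36 higher and 45 lower of 81, with a median of -0.021. Kcnd3, which carries a transient current, was at 153, 187, 125 and 150 CPM in Aifm1-KI against 111 to 125 CPM in Aifm1-WT. Kcna4 was at 20.4, 25.4, 22.4 and 19.1 CPM against 17.2 to 18.6 CPM. Kcna5, another channel of the Shaker class, was at 2.74, 10.6, 3.04 and 7.62 CPM against 1.58 to 1.95 CPM, or 1.81 as a log2 fold change (SE 0.41; adjusted p = 0.368, edgeR). Of the 81, 12 were higher and 6 lower at an unadjusted p under 0.05, against 7.05% and 4.34% of all genes. Without overlap, 4 were higher and 1 lower, against 2.67% and 2.33%. In Aifm1-KI 2 and 4 alone, 2 were above the wild-type range and 9 below it, against 4.59% and 4.54%. The members named here are higher ones, and the family as a whole showed no common direction.

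Among the 10 higher genes with the widest gap between the groups, several were far above the wild type in Aifm1-KI 2 and 4 and near it in 1 and 3. Gpr101, an orphan receptor, was at 2.14, 43.9, 1.13 and 22.9 CPM in Aifm1-KI and 0.333 to 0.679 CPM in Aifm1-WT. Tacr1, the receptor for substance P, was at 1.98, 19.4, 2.0 and 9.56 CPM against 1.29 to 1.63 CPM. Nts, the precursor of the neuropeptide neurotensin, was at 2.69, 13.2, 1.74 and 6.94 CPM against 0.436 to 1.45 CPM. The lack of overlap in these genes coexists with large differences inside the knock-in group. Gpr6, a receptor of striatal neurons, was at 2.42, 4.28, 1.83 and 2.71 CPM against 1.06 to 1.54 CPM. Prkch, a protein kinase C, was at 3.95, 5.52, 4.17 and 4.96 CPM against 3.0 to 3.39 CPM. Nlrc3, a cytosolic inhibitor of innate immune signals, was at 2.36, 3.35, 2.35 and 2.30 CPM against 1.36 to 1.87 CPM. Prkch and Nlrc3 were the more even of these.

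Lower genes shared by all 4 knock-in libraries included several of cytokine and immune signalling. Il4ra, the receptor chain for interleukins 4 and 13, was at 6.31, 5.07, 6.0 and 5.59 CPM in Aifm1-KI and 7.99, 7.71, 7.81 and 8.51 CPM in Aifm1-WT. Its log2 fold change was -0.49 (SE 0.10; adjusted p = 0.368, edgeR). Socs3, a feedback inhibitor of JAK-STAT signalling, was at 4.17, 3.89, 4.96 and 4.96 CPM against 6.15, 7.12, 6.51 and 5.93 CPM, or -0.53 as a log2 fold change (SE 0.12; adjusted p = 0.368, edgeR). In both, the smallest knock-in shift was over 0.5 of the largest. Serpinb1a, a protease inhibitor of leukocytes and other cells, was at 3.52 to 4.50 CPM in Aifm1-KI against 5.12 to 6.15 CPM. Maf, a transcription factor of perivascular macrophages and interneurons, was at 38.2, 36.3, 35.7 and 35.8 CPM against 46.9, 44.9, 47.3 and 40.9 CPM, or -0.30 as a log2 fold change (SE 0.06; adjusted p = 0.368, edgeR). S1pr1, the sphingosine-1-phosphate receptor of endothelium and astrocytes, was at 136 to 146 CPM against 156 to 170 CPM. Cd6, a T cell surface receptor, was at 3.18, 0.724, 2.0 and 2.43 CPM against 4.03 to 5.86 CPM. Cd6 was far lower in Aifm1-KI 2 than in the rest, unlike Maf and S1pr1.

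Interferon-stimulated genes encode antiviral proteins and are switched on through transcription factors, STAT2 and IRF9 among them, that bind the interferon-stimulated response element. Of 23 members tested, 4 were higher and 19 lower, with 7 lower at an unadjusted p under 0.05 (4.34% of all genes) and 3 lower without overlap (2.33% of all genes). The list's level was 1.95, 1.85, 1.73 and 1.86 in Aifm1-KI 1 to 4 and 2.23, 2.16, 2.21 and 2.01 in Aifm1-WT 1 to 4, so the groups did not overlap. Its median log2 fold change was -0.27, with -0.22 without Aifm1-KI 2 and 4 and -0.23 without Aifm1-WT 1 and 2. Every knock-in library was thus below every wild type on this list.

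The promoters of 18 of the 23 genes were found in the RefSeq table (GRCm38.p6), which gives 250 bases before to 50 after each start. The core motif GAAANNGAAA, searched on both strands, occurred in 11 of the 18 (61.1%). It occurred in 3.44% of all 32851 promoters in the table and 3.52% of the tested genes with a promoter there. The list was made up of genes known as interferon-stimulated, so a high share was set by that choice. It does not bear on the knock-in. Sequences 5′ to 3′ along the gene's strand are shown for Ifit1 and Ifit3b, the members with the lowest p, and for Isg15, where matches overlap. Capitals mark the motif on either strand. The stretches lie on chromosome 19 at 34640765 to 34640824 (Ifit1, plus strand) and 34607749 to 34607812 (Ifit3b, plus strand), and on chromosome 4 at 156200857 to 156200916 (Isg15, minus strand).
Ifit1: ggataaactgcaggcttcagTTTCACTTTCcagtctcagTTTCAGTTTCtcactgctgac
Ifit3b: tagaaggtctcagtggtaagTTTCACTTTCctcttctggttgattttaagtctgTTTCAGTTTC
Isg15: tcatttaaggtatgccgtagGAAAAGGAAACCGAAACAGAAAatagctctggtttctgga
A match is a description of the letters and not of binding. Ifit1, which encodes a protein that blocks translation of viral RNA, was at 1.26, 1.72, 1.13 and 1.53 CPM in Aifm1-KI and 3.15, 3.0, 3.56 and 1.63 CPM in Aifm1-WT. Aifm1-KI 2 lay above Aifm1-WT 4, and the log2 fold change was -0.96 (SE 0.25; adjusted p = 0.368, edgeR). Ifit3b was at 1.37, 1.24, 1.39 and 1.58 CPM against 2.42, 2.29, 2.66 and 1.63 CPM. Ifit3b has a near-identical neighbour, Ifit3, which carries the same 64 bases upstream, so its count is uncertain. Parp14, an ADP-ribosyltransferase, was at 2.99 to 3.43 CPM against 3.73 to 4.79 CPM, and Ddx58, the RNA sensor RIG-I, at 4.19 to 5.13 CPM against 5.15 to 6.06 CPM. Isg15, a ubiquitin-like protein, was at 1.32, 0.664, 1.04 and 1.26 CPM against 1.40, 0.958, 1.58 and 1.67 CPM, with overlap. Stat2, one of the factors named above and itself a member, was at 28.1 to 35.9 CPM against 30.6 to 39.8 CPM, also with overlap. Apart from Stat2, the members named here were at 6.06 CPM or less, where few reads stand behind each value.

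Class I antigen presentation, in which peptides cut by the proteasome are shown to T cells, pointed the same way. Of 14 genes, 2 were higher and 12 lower, with 5 lower at an unadjusted p under 0.05 (4.34% of all genes) and 2 lower without overlap (2.33%). The level was 2.55 to 2.62 in Aifm1-KI and 2.70 to 2.90 in Aifm1-WT, with a median log2 fold change of -0.16, or -0.12 without Aifm1-WT 1 and 2. H2-K1, a class I heavy chain, was at 12.8, 14.4, 13.4 and 15.1 CPM in Aifm1-KI and 18.7, 19.0, 16.3 and 17.9 CPM in Aifm1-WT, or -0.36 as a log2 fold change (SE 0.08; adjusted p = 0.368, edgeR). As H2-K1 belongs to a family of close copies, reads that fit several members could have been lost or split. Psmb9, the proteasome subunit used in immune cells, was at 0.543 to 0.609 CPM against 0.634 to 1.19 CPM. The complement list, of proteins that tag targets for removal, was 4 higher and 11 lower of 15, with a level of 1.97 to 2.33 against 2.41 to 2.73 and a median of -0.096, or -0.18 without Aifm1-WT 1 and 2. C3, its central component, was at 0.659, 0.875, 0.956 and 0.496 CPM in Aifm1-KI but 8.04, 11.4, 1.70 and 1.22 CPM in Aifm1-WT, with Aifm1-WT 1 and 2 high. C3 is also made by liver, whose markers were high in these same libraries, and the part of that RNA in its level was not tested. C1ra, a complement protease, was at 1.59, 0.603, 2.0 and 0.856 CPM against 2.12 to 2.91 CPM.

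These immune lists were read beside markers of the cells that express them. In whole tissue, fewer cells of a type and less RNA per cell cannot be told apart. Microglia markers were 2 higher and 16 lower of 18, none at an unadjusted p under 0.05, with a median of -0.054 and levels of 4.07 to 4.37 in Aifm1-KI and 4.21 to 4.43 in Aifm1-WT. Perivascular macrophage markers, 2 higher and 6 lower of 8, had levels of 1.30, 1.88, 0.79 and 1.79 in Aifm1-KI 1 to 4 and 1.72 to 1.91 in Aifm1-WT. Meningeal markers were at 1.51 in Aifm1-KI 3 and 2.85 to 3.53 in the other 7 libraries. Endothelial markers, 4 higher and 12 lower of 16, had a median of -0.21, and Tek, the angiopoietin receptor, was lower without overlap, at 8.66 to 11.5 CPM against 12 to 15.7 CPM. Angpt2, its ligand, was at 2.03, 3.32, 3.22 and 3.47 CPM in Aifm1-KI and 1.11, 1.92, 2.04 and 0.905 CPM in Aifm1-WT, where Aifm1-KI 1 lay within the wild-type range. Astrocyte markers, 6 higher and 9 lower of 15, had a median of -0.037, although Aldh1l1, a folate enzyme used as their marker, was at 48.8 to 61.1 CPM against 64.1 to 73.5 CPM. Without Aifm1-KI 2 and 4, medians were -0.22 for microglia, -0.53 for perivascular macrophages and -0.72 for meninges, beside -0.22 for the interferon-stimulated list and -0.17 for class I. In Aifm1-KI 2 and 4, microglia markers (4.36 and 4.37) were inside the wild-type range and meningeal markers (3.53 and 3.38) above it. Endothelial markers were at 3.87 and 4.05 there, against 3.99 to 4.28 in Aifm1-WT. Pericyte and smooth muscle markers, 2 higher and 11 lower of 13, were at 2.69 and 2.87 against 2.70 to 3.02. In Aifm1-KI 1 and 3, endothelial markers were at 3.97 and 3.96 and those of pericytes and smooth muscle at 2.65 and 2.44. Both lists were thus below the wild-type range in Aifm1-KI 1, 2 and 3 and inside it in Aifm1-KI 4. At an unadjusted p under 0.05, 5 endothelial markers were lower and 0 higher, against 4.34% and 7.05% of all genes. The interferon-stimulated list was below its wild-type range in all 4 knock-in libraries (1.95, 1.85, 1.73 and 1.86). The part of these cells in the immune lists was not tested.

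Clock and metabolic genes also appeared among those lower in all 4. The circadian clock is a loop of transcription factors that runs in most cells, and the labels give no hour of collection. Of 18 clock genes, 3 were higher and 15 lower, with 3 lower without overlap (2.33% of all genes). Bhlhe41, a repressor in the loop, was at 28.9 to 31.0 CPM in Aifm1-KI and 33.2, 37.0, 42.2 and 39.7 CPM in Aifm1-WT, or -0.35 as a log2 fold change (SE 0.08; adjusted p = 0.368, edgeR). Nr1d1, which encodes REV-ERB alpha, was at 104, 67.4, 95.6 and 81.7 CPM against 108 to 132 CPM. The list's median of -0.17 was 0.022 without Aifm1-KI 2 and 4, so the shared direction came with these libraries, while Bhlhe41 was lower in each.

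Slc16a1, which encodes the lactate and ketone transporter MCT1 of endothelium and oligodendrocytes, was at 31.0, 24, 27.2 and 24.6 CPM in Aifm1-KI and 37.2, 34.9, 36.3 and 32.6 CPM in Aifm1-WT. Its log2 fold change was -0.40 (SE 0.09; adjusted p = 0.368, edgeR). Plin2, which coats lipid droplets, was at 2.80, 3.74, 2.78 and 3.79 CPM against 4.70 to 5.17 CPM, and here Aifm1-KI 1 and 3 were the lowest. Bnip3, a mitophagy receptor induced by low oxygen, was at 6.27 to 7.91 CPM against 8.46 to 9.83 CPM. Casp9, the caspase that acts when mitochondria release cytochrome c, was at 22.9 to 25.1 CPM against 26.6 to 29.5 CPM. Efna1, an ephrin ligand, was at 4.50, 1.57, 4.0 and 2.43 CPM against 5.61 to 8.37 CPM, and Sytl1, a vesicle-docking protein, at 2.08, 0.513, 1.91 and 1.49 CPM against 3.0 to 4.64 CPM. All 4 of these genes were lowest in Aifm1-KI 2, by a wide margin for Efna1 and Sytl1 and a narrow one for Bnip3 and Casp9. H2afz, a histone variant, was at 3.61 to 4.39 CPM against 5.18 to 5.92 CPM, and Utp14b, of ribosome assembly, at 21.7 to 24.3 CPM against 26.4 to 30.2 CPM. Utp14b overlaps other transcripts in the genome, and without a stated strand setting reads of overlapping genes cannot be told apart. Fdps and Idi1, enzymes of the cholesterol pathway, went the other way. Fdps was at 4.34, 4.49, 4.0 and 4.60 CPM in Aifm1-KI and 3.17 to 3.58 CPM in Aifm1-WT, and Idi1 at 0.811 to 0.965 CPM against 0.453 to 0.750 CPM. Of 22 genes of that pathway 12 were higher and 10 lower, so these 2 did not stand for the rest.

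The respiratory chain, to which Aifm1 is tied, showed small shifts. It passes electrons from NADH to oxygen and pumps protons that drive ATP synthesis. Of 36 nuclear complex I subunits, 6 were higher and 30 lower, with a median log2 fold change of -0.041. At an unadjusted p under 0.05 was 1 member, lower, against 4.34% of all genes. Levels were 5.23 to 5.36 in Aifm1-KI and 5.24 to 5.41 in Aifm1-WT, which overlap almost fully. Ndufa6, a subunit at the rim of the complex, was the member without overlap, at 47.8 to 52.0 CPM against 52.7 to 54.0 CPM. Of 38 nuclear subunits of complexes II to V, 2 were higher and 36 lower, with a median of -0.068, none at an unadjusted p under 0.05 and none without overlap. Their level was 5.91 in Aifm1-KI 3 and 5.79 to 5.80 in the other knock-ins, against 5.79 to 6.0 in Aifm1-WT. Although most members were lower on average, neither list separated the groups by library.

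The other mitochondrial lists also overlapped between the groups. Complex I assembly factors were 6 higher and 9 lower of 15, and the substrates and parts of Mia40 import 6 higher and 14 lower of 20. Cox17, a copper chaperone that Mia40 imports, was at 14.4 to 17.1 CPM in Aifm1-KI and 17.2 to 18.9 CPM in Aifm1-WT, so that the nearest libraries of the groups almost met. The 7 mitochondrially encoded genes that were tested had levels of 11.93 to 12.29 against 11.99 to 12.15. Genes of the mitochondrial stress response were 7 higher and 16 lower of 23, with a median of -0.084. Of these, 4 were lower at an unadjusted p under 0.05, against 4.34% of all genes. Their levels only touched, at 4.03 to 4.18 against 4.18 to 4.27. Mitochondrial chaperones and proteases were 6 higher and 10 lower of 16. TCA cycle enzymes were 2 higher and 16 lower of 18, where Idh2, which makes NADPH in the matrix, was at 30.1 to 31.3 CPM against 31.5 to 36.9 CPM. Among 40 mitochondrial carriers, 19 higher and 21 lower, levels were 4.88 to 4.92 against 4.92 to 4.95. Slc25a38, one of them and a glycine carrier needed for heme, was at 15 to 16.2 CPM against 16.9 to 18.8 CPM. Cytosolic ribosomal proteins were 31 higher and 44 lower of 75, with Rpl22 at 55.4 to 58.9 CPM against 61.1 to 69.1 CPM. None of these lists separated the groups by its level.

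Liver transcripts were far lower in Aifm1-KI than in Aifm1-WT, and 2 wild-type libraries held most of them. Of 22 tested liver genes, 1 was higher and 21 lower in Aifm1-KI, with a median log2 fold change of -3.7. At an unadjusted p under 0.05 were 20, all lower (4.34% of all genes), and 10 were lower without overlap (2.33%). Alb, which encodes serum albumin, was at 7.24, 7.0, 8.17 and 1.44 CPM in Aifm1-KI 1 to 4 and 158, 177, 19.0 and 14 CPM in Aifm1-WT 1 to 4. Ahsg, a plasma glycoprotein, was at 0.135 to 0.956 CPM against 18.9, 23.4, 1.98 and 1.54 CPM, where the lowest knock-in value equals a count of 3. Apoa2, a lipoprotein, was at 1.08 to 1.56 CPM against 26.2, 27.7, 2.83 and 2.44 CPM. All are made by hepatocytes, and Aifm1-WT 1 and 2 stood far above Aifm1-WT 3 and 4, which in turn exceeded the knock-ins. Serpina3k was at 0.541 to 2.63 CPM against 37.6, 42.7, 5.43 and 3.21 CPM, and Gc, the vitamin D carrier, at 0.261 to 0.406 CPM against 12.5, 13.7, 1.58 and 1.18 CPM. Serpina3k belongs to a cluster of close copies and its count is uncertain. Tdo2, a tryptophan-degrading enzyme of liver and hippocampus, was at 0.870 to 1.30 CPM against 5.76, 6.92, 1.64 and 1.99 CPM. Without Aifm1-WT 1 and 2 the median of the list was -1.0, with 20 of 21 members lower.

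Some genes differed widely in Aifm1-KI 2 and 4 alone. The 8 genes above the wild-type range with the largest mean difference in these libraries were chosen for that pattern, so their values are a description. Igsf1, an immunoglobulin superfamily protein of hypothalamus and pituitary, was at 1.54, 24.1, 1.13 and 11.3 CPM in Aifm1-KI 1 to 4 and 1.06 to 1.86 CPM in Aifm1-WT. Zim1, an imprinted zinc finger gene, was at 6.53, 50.1, 6.96 and 24.6 CPM against 4.94 to 7.51 CPM. Col25a1, a membrane collagen of neurons, was at 31.8, 155, 32.2 and 87.5 CPM against 26.4 to 32.5 CPM. In each, Aifm1-KI 2 was the highest library and Aifm1-KI 4 the next, and 1 and 3 were inside the wild-type range. Slc29a4, a monoamine transporter, was at 6.04, 33.5, 6.52 and 19.0 CPM against 3.97 to 6.74 CPM. Trpc7, a cation channel, was at 2.42, 11.4, 1.74 and 8.20 CPM against 1.53 to 2.42 CPM. Hcn4, a pacemaker channel of thalamus and septum, was at 4.45, 18.9, 3.30 and 12.9 CPM against 2.77 to 4.96 CPM. Dach1, a transcription cofactor, was at 5.82, 29.2, 4.52 and 12.3 CPM against 3.30 to 6.25 CPM, and Car12, a carbonic anhydrase also found in choroid plexus, at 8.40, 65.1, 8.09 and 30.1 CPM against 6.22 to 13.5 CPM.

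**Figure D3:**
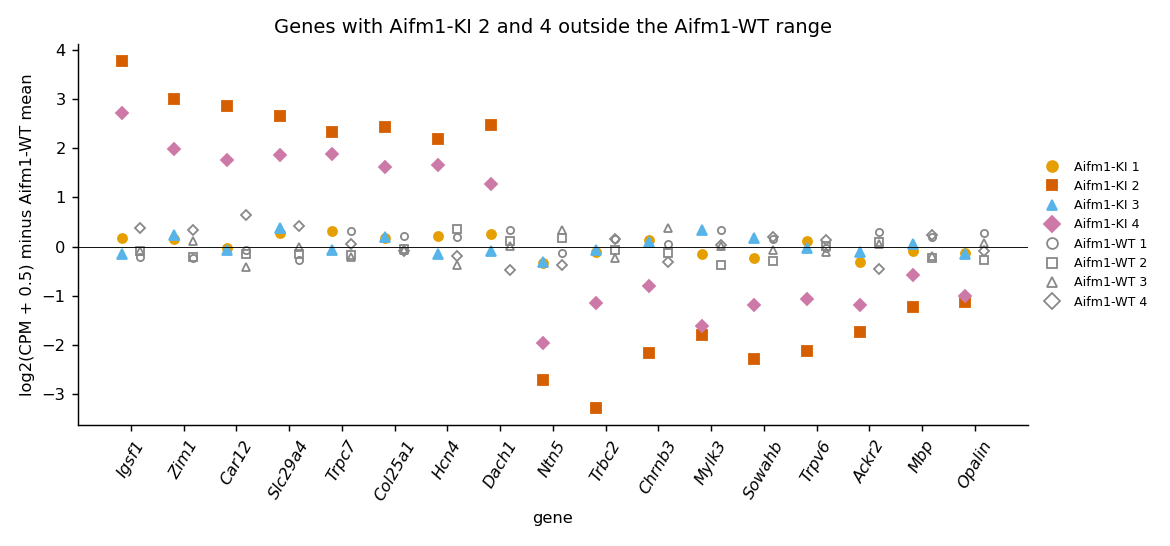
Shift of each library from the Aifm1-WT mean, in log2(CPM + 0.5) (y axis), for genes with Aifm1-KI 2 and 4 outside the range of the Aifm1-WT libraries (open), one column per gene. Squares (Aifm1-KI 2) lie beyond diamonds (Aifm1-KI 4) in nearly every column, as in Igsf1 (24.1 and 11.3 CPM), while circles and triangles (Aifm1-KI 1 and 3) lie with the wild types.

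The 8 genes below the range with the largest mean difference in these libraries alone were chosen in the same way. Sowahb, an ankyrin repeat protein, was at 37.2, 8.66, 49.6 and 18.9 CPM against 36.0 to 50.7 CPM. Trpv6, a calcium channel, was at 10.8, 1.87, 9.56 and 4.42 CPM against 9.05 to 10.8 CPM. In these genes Aifm1-KI 2 was the lowest library, Aifm1-KI 4 came next, and 1 and 3 were inside or near the wild-type range. Ntn5, a netrin-like gene, was at 8.67, 1.27, 8.78 and 2.48 CPM against 8.37 to 14 CPM. Mylk3, a myosin kinase, was at 5.60, 1.45, 8.09 and 1.71 CPM against 4.71 to 8.09 CPM. Chrnb3, a nicotinic receptor subunit, was at 3.13, 0.241, 3.04 and 1.40 CPM against 2.17 to 3.79 CPM. Ackr2, a decoy receptor for chemokines, was at 3.24, 0.905, 3.83 and 1.53 CPM against 2.90 to 5.23 CPM. Trbc2, the T cell receptor beta constant region, was at 4.83, 0.0905, 4.96 and 2.07 CPM against 4.36 to 5.88 CPM. Its value in Aifm1-KI 2 equals a count of 3, the level that a gene with no reads could still have, so the size of that drop is uncertain. Mup3, a liver gene of a family of close copies whose count is uncertain, met the same rule because Aifm1-WT 4 was low, at 2.85, 1.81, 3.13 and 0.811 CPM against 38.3, 49.8, 6.0 and 2.58 CPM.

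Striatal genes were high in Aifm1-KI 2 and 4 and to a lesser degree in Aifm1-KI 1. The striatum lies beneath the cortex, and its spiny neurons form a direct pathway marked by dopamine receptor D1 and an indirect one marked by D2. Markers shared by both were 14 higher and 3 lower of 17, with levels of 5.60, 6.04, 5.39 and 6.01 in Aifm1-KI 1 to 4 and 5.34 to 5.46 in Aifm1-WT. Those of the indirect pathway, 6 higher and 2 lower of 8, were at 2.46, 3.40, 1.49 and 3.19 against 1.62 to 1.86. Drd2 was at 4.39, 12.6, 0.870 and 9.38 CPM in Aifm1-KI and 0.815 to 0.958 CPM in Aifm1-WT. Adora2a, an adenosine receptor of the same neurons, was at 5.60, 13.3, 2.09 and 16.9 CPM against 1.62 to 2.35 CPM, and Drd1 at 16.2, 26.3, 9.13 and 24 CPM against 8.14 to 9.46 CPM. Aifm1-KI 3 was at the wild-type level in Drd2 and Adora2a. Without Aifm1-KI 3, these genes passed the test, at a log2 fold change of 3.30 for Drd2 (edgeR adjusted p = 0.0295), 2.63 for Adora2a and 1.33 for Drd1 (edgeR adjusted p = 0.0435 for both), as did Rgs9, a striatal regulator of G proteins (0.96, edgeR adjusted p = 0.0435). In all, 46 genes (43 higher, 3 lower) were called without Aifm1-KI 3, and 0 without any other single library. Aifm1-KI 3 had the lowest striatal levels of the knock-ins, so leaving it out favours a call for striatal genes. With all 8 libraries, DESeq2 also called Drd1, Drd2, Rgs9 and Adora2a (DESeq2 adjusted p = 0.0226, 0.026, 0.043 and 0.047), while edgeR's quasi-likelihood test and limma-voom did not. Pde10a, a phosphodiesterase of striatal neurons, was the shared marker higher in all 4, and Gpr6 (above) the one of the indirect pathway. Pde10a was at 108, 119, 106 and 135 CPM against 55.4, 64.3, 61.9 and 100 CPM. Without Aifm1-KI 2 and 4 the median of the shared list went from 0.31 to 0.064, that of the direct pathway from 0.26 to 0.0062 and that of the indirect pathway from 0.87 to 0.26.

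Cholinergic markers, found in basal forebrain and striatum, were 4 higher and 1 lower of 5, at levels of 0.93, 3.07, 0.81 and 2.23 in Aifm1-KI and 0.58 to 0.76 in Aifm1-WT. Nos1, which makes nitric oxide in interneurons and septum, was at 81.3, 205, 45.7 and 136 CPM against 43.3 to 64.0 CPM. Pcdh17, a cell adhesion protein of corticobasal circuits, was at 120, 225, 119 and 166 CPM against 81.3 to 111 CPM, without overlap. The median of the cholinergic list went from 1.3 to 0.26 without Aifm1-KI 2 and 4, and to -0.036 when the level of striatal markers entered the fit. The order Aifm1-KI 2, 4, 1 and 3 held in the first of these lists and in both genes.

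Markers of the cortex itself had medians of -0.15 to 0.06. Upper-layer excitatory neuron markers were 6 higher and 9 lower of 15, at 5.67, 5.34, 5.73 and 5.64 in Aifm1-KI and 5.66 to 5.77 in Aifm1-WT. Cux2, a transcription factor of layers 2 to 4, was at 163, 83.0, 153 and 128 CPM against 174 to 225 CPM, and Rorb, of layer 4, at 57.6, 37.4, 53.5 and 55.3 CPM against 62.0 to 77.5 CPM, both without overlap. Deep-layer markers were 11 higher and 9 lower of 20, where Crym, a thyroid hormone-binding protein, was at 54.4, 72.3, 37.6 and 60.4 CPM against 28.7 to 38.6 CPM and Bcl11b, a factor of both corticofugal and striatal neurons, at 98.5, 149, 73.6 and 129 CPM against 75.3 to 80.2 CPM. Other deep-layer genes went the other way in Aifm1-KI 2 and 4. Fezf2, which directs the fate of corticospinal neurons, was at 56, 12.1, 54.7 and 25.7 CPM against 41.8 to 55.7 CPM, and Cplx3, a complexin of the deepest layer, at 21.3, 4.83, 18.9 and 13 CPM against 17.7 to 22.5 CPM. Both were named after their values were seen, and the level of the list was 5.48, 5.09, 5.24 and 5.21 against 5.15 to 5.30. Cortical interneuron markers, 10 higher and 7 lower of 17, were at 4.84 to 5.09 against 4.92 to 4.98. Cortical markers were thus present in every library, as the tissue label of cortex says.

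Oligodendrocyte genes were low in Aifm1-KI 2 and 4. These cells wrap axons in myelin. All 18 members were lower on average, with a median log2 fold change of -0.42, and 13 of them were below the wild-type range in Aifm1-KI 2 and 4 alone, against 4.54% of all genes. Levels were 5.92, 4.84, 5.95 and 5.33 in Aifm1-KI 1 to 4 and 5.83 to 6.23 in Aifm1-WT. Mbp, myelin basic protein, was at 1616, 736, 1792 and 1158 CPM against 1474 to 2021 CPM. Opalin was at 14.3, 6.88, 14.1 and 7.57 CPM against 12.8 to 19.1 CPM. Aifm1-KI 1 and 3 were inside the wild-type range in these. Without Aifm1-KI 2 and 4 the median was -0.049. Trf, transferrin, was lower also in Aifm1-KI 3, at 16.6, 9.47, 12.7 and 10.6 CPM against 15.8 to 27.0 CPM, and Aspa, which degrades N-acetylaspartate, was lower in all 4, at 14.1, 7.75, 12.3 and 10.3 CPM against 14.6 to 17.6 CPM.

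Precursors of these cells, 10 markers higher and 2 lower of 12, went the other way at levels of 5.15, 5.51, 5.15 and 5.45 against 5.0 to 5.18. Cspg4, their NG2 proteoglycan, was at 22.8, 32.5, 19.9 and 30.5 CPM against 19.9 to 22 CPM. Sox10, a factor of the whole lineage, was lower without overlap, at 33.6, 26.4, 32.0 and 29.3 CPM against 33.8 to 36.7 CPM. The median of the precursor list was 0.31, and 0.032 without Aifm1-KI 2 and 4.

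Immediate early genes, which neurons switch on within minutes of activity, were 3 higher and 21 lower of 24, with a median of -0.26 and 5 below the wild-type range in Aifm1-KI 2 and 4 alone (4.54% of all genes). The levels were 5.87, 5.28, 6.30 and 5.80 in Aifm1-KI and 5.83, 5.97, 6.12 and 6.58 in Aifm1-WT. Fos, the best known of them, was at 45.0, 29.0, 55.7 and 37.1 CPM against 37.4, 46.7, 58.5 and 80.5 CPM. Ier2, another early response gene, was at 8.78, 2.84, 11.6 and 5.82 CPM against 9.49 to 15.2 CPM. The groups overlapped in the list's level, and without Aifm1-KI 2 and 4 the median was -0.056. When 1 wild-type library was left out, it ran from -0.35 without Aifm1-WT 1 to -0.11 without Aifm1-WT 4.

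**Figure D4:**
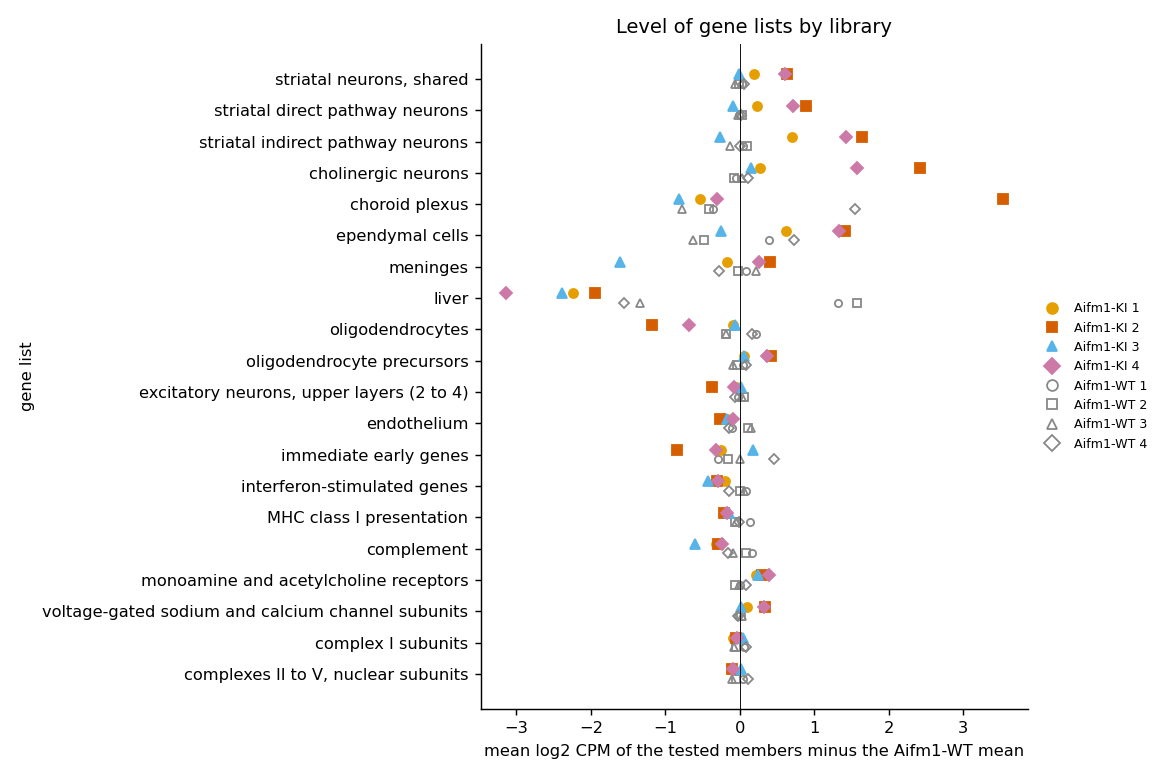
Mean log2 CPM of the tested members of 20 gene lists in each library, relative to the Aifm1-WT mean (x axis), with Aifm1-KI libraries filled and Aifm1-WT libraries open. Striatal, cholinergic and oligodendrocyte lists are spread by Aifm1-KI 2 and 4, choroid plexus by Aifm1-KI 2 (level 5.0) and Aifm1-WT 4 (3.02), and the interferon-stimulated, class I and complement lists have all 4 knock-ins to the left of all wild types.

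Other neighbouring tissues followed single libraries. All 15 choroid plexus markers tested were higher on average, none at an unadjusted p under 0.05, and their level was 0.93, 5.0, 0.66 and 1.16 in Aifm1-KI 1 to 4 against 1.11, 1.06, 0.70 and 3.02 in Aifm1-WT 1 to 4. Ttr, transthyretin, the most abundant of them, was at 2738 CPM in Aifm1-KI 2, 328 CPM in Aifm1-WT 4 and 18 to 41.7 CPM in the other 6 libraries. Prlr, the prolactin receptor, was at 57.7 CPM in Aifm1-KI 2 and 13.3 CPM in Aifm1-WT 4. Without Aifm1-KI 2 the median of the list went from 1.6 to -0.79, so its direction rested on that library. Ependymal markers, of the ciliated cells lining the ventricles, were 11 higher of 11, at levels of 0.83, 1.63, -0.04 and 1.55 against -0.41 to 0.94. Of these markers, 6 were at an unadjusted p under 0.05, against 7.05% of all genes. Their median went from 1.1 to 0.17 without Aifm1-KI 2 and 4. Hydin, of motile cilia, was at 2.85, 6.27, 1.48 and 4.87 CPM against 0.962 to 1.95 CPM. Dcn, a meningeal proteoglycan, was at 21.0, 17.7, 3.56 and 16.4 CPM against 8.01 to 13.3 CPM, above the wild types in 3 knock-in libraries and below them in Aifm1-KI 3.

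Across the 61 lists and families, the level separated the groups in 7. It was higher in every Aifm1-KI library for the 5 cholinergic genes, whose median depended on Aifm1-KI 2 and 4, and for monoamine and acetylcholine receptors. It was lower in every Aifm1-KI library for liver, skeletal muscle, interferon-stimulated genes, class I presentation and complement. The complement list includes C3, which was highest in Aifm1-WT 1 and 2, as were the liver markers. The part of C3 in that separation was not tested. For skeletal muscle, 1 higher and 6 lower of 7, the median went from -0.75 to -0.24 without Aifm1-KI 2 and 4. Pvalb, 1 of these 7, is also on the cortical interneuron list. It was at 31.45, 7.81, 50.6 and 19.1 CPM in Aifm1-KI 1 to 4 against 41.7 to 58.1 CPM in Aifm1-WT, and its part in the separation was not tested. The remaining 54 lists overlapped.

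Gene size went along with the direction of the shared shifts. Genes spanning over 500 kb of the genome were higher in all 4 knock-in libraries in 22 of 207 cases (10.6%) and lower in 0 (0%), while those under 5 kb were higher in 15 of 1207 (1.24%) and lower in 33 (2.73%). Long genes include many of the synaptic and adhesion genes above, such as Csmd3 and Grid1. The median shift of genes over 500 kb from the wild-type mean was 0.112 in Aifm1-KI 1, 0.125 in Aifm1-KI 2, 0.011 in Aifm1-KI 3 and 0.018 in Aifm1-KI 4, on the log2 scale. The 4 wild-type libraries themselves ran from -0.028 to 0.052, so Aifm1-KI 3 and 4 lay inside their range. For genes under 5 kb it was -0.073, -0.029, -0.003 and -0.001 in Aifm1-KI 1 to 4 and -0.047 to 0.033 in Aifm1-WT. The medians were farthest from 0 in Aifm1-KI 1 and 2, which is not the pair that shared the most genes. The part of this trend in the counts of genes without overlap was not tested.

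**Figure D5:**
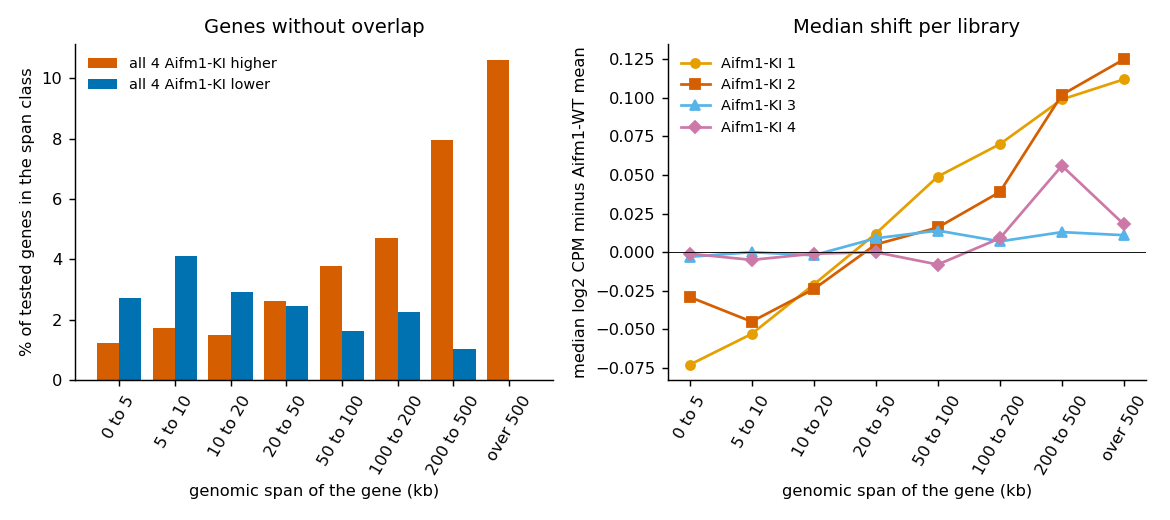
Left, percentage of tested genes with all 4 Aifm1-KI libraries above or below all Aifm1-WT libraries (y axis) by genomic span in kb (x axis); right, median shift of each Aifm1-KI library from the Aifm1-WT mean (log2 CPM). The share higher reaches 10.6% over 500 kb, and the medians run from -0.073 to 0.112 in Aifm1-KI 1 but stay within 0.014 of 0 in Aifm1-KI 3.

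Position on the X chromosome, which carries Aifm1, was also examined. Of 648 tested X-linked genes, 29 (4.48%) were higher in all 4 knock-in libraries and 11 (1.70%) lower, against 2.61% and 2.36% of 17698 autosomal genes. The median log2 fold change was 0.057 on X and 0.004 on autosomes. Within 5 Mb of Aifm1, 2 of 34 genes were higher without overlap and 0 lower. Single autosomes ranged from 1.54% to 4.27% higher and from 1.55% to 3.69% lower, so X lay at the upper end for higher genes and near the lower end for lower ones.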

How the data were processed

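RNA of cerebral cortex was sequenced in 51-base single-end reads, per the labels' protocols. Per the series' design text and the submitters' processing notes, the authors mapped reads to mm10 with STAR 2.6 and counted genes with htseq-count; SAMtools is also named. Which annotation release and strand option they used is not given in the sources used here. Deposited by the authors were whole-number counts per Ensembl gene, not normalized. The table has 16 columns, each mapped to a sample by its name. Positions and symbols come from GENCODE M21 (GRCm38, the assembly of mm10).

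Counts of the 8 Aifm1-KI and Aifm1-WT libraries were fitted with edgeR 4.0.16 in R 4.3.3 (TMM, filterByExpr by group, quasi-likelihood F-test, Benjamini-Hochberg adjusted p under 0.05). SE comes from the log2 fold change and F. A list's level averages log2 CPM (prior count 2) over its members. Gene names in the text are Aifm1, the 10 genes per direction with the widest gap between groups, the 8 per direction for Aifm1-KI 2 and 4, up to 3 members per list by p, and, chosen after their values were seen, even genes, list members without overlap and genes that mark a library. Members and 61 lists and families (50 lists, 11 families by name) were chosen with earlier results of these data known. Alternatives were other normalization, filters, tests (DESeq2 1.42.0, limma 3.58.1), a replicate block, a striatal covariate and left-out libraries. The fit was run on simulated counts, drawn for each gene on its own. It called 91 of 100 genes changed by a log2 fold change of 1 in size, 99 of 100 changed by 2, and 11 unchanged genes. Simulated libraries did not differ in tissue content as those here did, so the recovery does not carry over to these data. Libraries within a group differed by a chi-square of 3.29 to 41.3 per gene, so none was a copy. Floors cover counting error alone, as the reads carry no molecular identifiers. The values of some genes are not reported here.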

Additional observations from a re-analysis of the deposited data

Results flagged for a closer look

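In groups of 4 libraries, the highest or lowest was marked where its gap to the nearest other took up most of the group's range (Dixon's 95% limit, passed by about 1 group in 20 by chance). Of 346 groups examined (the 61 lists and 112 genes, in both genotypes), 16 were marked.

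Among lists, the choroid plexus level of Aifm1-KI 2 was high, at 5.0. The level of complexes II to V in Aifm1-KI 3 was high, at 5.91, and that of cholesterol synthesis in Aifm1-KI 1 low, at 5.01.

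In the Aifm1-KI group, Ttr was high in library 2 (2740 CPM) and so was Nlrc3 (3.35 CPM). Alb (1.44 CPM) and Ahsg (0.135 CPM) were low in library 4, Dcn (3.56 CPM) in library 3 and Angpt2 (2.03 CPM) in library 1. In the Aifm1-WT group, library 1 was low for Ryr3 (47.4 CPM), Nlrc3 (1.36 CPM) and Slc25a38 (16.9 CPM) and high for Cd6 (5.86 CPM) and Col25a1 (32.5 CPM). Library 4 was high for Ddx58 (6.06 CPM) and Prlr (13.3 CPM).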

How the results depend on the processing

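The count of called genes was 0 with DESeq2's size factors, without a low-count filter, with a mean log2 CPM of at least 1, over all 16 libraries, with the striatal covariate and with limma-voom with or without sample weights. It was 82 with DESeq2, 110 with edgeR's likelihood ratio test and 0 to 46 when 1 library was left out, the 46 coming without Aifm1-KI 3. With the replicate number as a replicate block it was 0, with 1995 genes at an unadjusted p under 0.05. Same-numbered libraries correlated at 0.056, 0.14, 0.018 and -0.055 in their deviations from group means, so the numbers do not pair them.

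Genes without overlap numbered 576 to 1686 higher and 642 to 1353 lower when 1 library was left out, since fewer libraries overlap less. Without Aifm1-KI 2 and 4 they were 1281 and 1476, and without Aifm1-WT 1 and 2 1288 and 1178. Without a low-count filter, which adds genes, 766 were lower, and 1518 were above the range in Aifm1-KI 2 and 4 only.

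Directions turned for some genes, and the cause was not tested. With the striatal covariate the log2 fold change became -0.44 for Car12, 0.39 for Chrnb3, 0.13 for Cplx3, -0.032 for Cspg4, -0.23 for Dach1, -0.18 for Dcn, 0.41 for Fezf2, -0.30 for Hcn4, -0.76 for Igsf1, 0.046 for Mbp, 0.29 for Mylk3, -1.78 for Prlr, 0.14 for Sowahb, 0.12 for Trbc2, -0.19 for Trpc7, 0.20 for Trpv6, -1.85 for Ttr and -0.059 for Zim1. Without Aifm1-KI 2 and 4 it became -0.11 for Car12, 0.12 for Chrnb3, 0.0073 for Cplx3, 0.26 for Fezf2, 0.080 for Mylk3, -1.03 for Prlr, 0.046 for Trpv6 and -1.90 for Ttr. When 1 library was left out, it ran from -0.20 to 2.90 for Prlr and from -2.10 to 4.39 for Ttr, the lowest without Aifm1-KI 2 and the highest without Aifm1-WT 4. With the replicate block it was -0.0077 for Ttr. Genes at 1 CPM or less rest on few reads.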
